A study of Mus musculus with 9 samples.

Results

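The genes described here are the oestrogen receptors and a set of genes known to respond to oestrogen or tamoxifen, namely Esr1, Esr2, Pgr, Greb1, Nrip1, Igfbp4 and Stc2. All probe sets that the array annotation assigns to these 7 genes were taken, 26 of 45101 on the array, and 4 of the 7 genes were above the expression filter. The tumours were T-cell lymphomas of G3 Atm-/-TERT-ER mice, which lack the DNA break kinase Atm and carry telomerase reverse transcriptase fused to an oestrogen receptor. All were carried in recipient mice of the SCID strain, which lacks mature T and B cells. The 5 ALT tumours were at passage 4 on vehicle and are labelled as maintaining telomeres by alternative lengthening of telomeres (ALT). The 3 telomerase tumours were at passage 4 on 4-hydroxytamoxifen (4-OHT), which switches the fused telomerase on. The 1 parental tumour is labelled telomerase-positive, and its title gives neither passage nor drug. The Atm deletion and the TERT-ER allele are thus shared by every tumour, and drug, active telomerase and ALT cannot be told apart between the groups. The sources used here do not state the promoter that drives TERT-ER or whether the tumours of a group came from separate lines or animals. The p-values therefore measure only the spread between these samples, which may be technical.

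Oestrogen receptors are ligand-dependent transcription factors. Bound oestrogen lets Esr1 or Esr2 recruit coactivators at oestrogen response elements, whereas 4-OHT, the active form of tamoxifen, fits the same pocket and favours corepressors in breast cells while acting as a partial agonist in some other tissues. In human breast cancer cells PGR, GREB1, NRIP1, IGFBP4 and STC2 are well-known oestrogen-induced genes. In lymphoid cells the receptors are known at low levels in thymocytes, where oestrogen is known for causing thymic atrophy.

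The T-cell identity of the specimens was seen in 7 measured T-cell markers, whose summed signal ran from 23607 to 29237 in ALT tumours and from 31592 to 34192 in telomerase tumours, with 35269 in the parental tumour. The groups did not overlap in this sum, which the brightest markers carry, whereas the mean log2 level of the 7 markers overlapped, at 11.26 to 11.57 in ALT tumours and 11.47 to 11.60 in telomerase tumours. The part of this in the results was not tested. Median signals of the 9 arrays were 39.8 to 43.8, and each array had 28.2% to 30.7% of its probe sets below a signal of 16. Telomerase 3 and ALT 1, 2 and 5 carried pancreatic acinar transcripts: 13 acinar markers summed to between 91489 and 192061 in ALT 1, 2 and 5 and to 122006 in telomerase 3, against 640.1 and 1030 in the other ALT tumours, 387 and 490.1 in the other telomerase tumours and 339 in the parental tumour. Telomerase 1 and the parental tumour carried skeletal muscle transcripts, with summed signals of 13 markers of 9871 and 14710, against 275 to 366 in ALT tumours and 294 and 696 in the remaining telomerase tumours. In ALT tumours between 8 and 10 of the 13 muscle markers were below 16.

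The promoters of the 3 members that differed between ALT and telomerase tumours are shown because they are the stretches where a receptor-bound element near the start site would be read. They are RefSeq sequences of build GRCm38.p6, 250 bases before to 50 after the start site, at chr12:16800837-16801136 (minus strand), chr11:31370012-31370311 (minus strand) and chr11:99040994-99041293 (plus strand). Capitals mark the core motif AGGTCA, on either strand, which is 1 arm of the palindromic oestrogen response element.
Greb1 promoter: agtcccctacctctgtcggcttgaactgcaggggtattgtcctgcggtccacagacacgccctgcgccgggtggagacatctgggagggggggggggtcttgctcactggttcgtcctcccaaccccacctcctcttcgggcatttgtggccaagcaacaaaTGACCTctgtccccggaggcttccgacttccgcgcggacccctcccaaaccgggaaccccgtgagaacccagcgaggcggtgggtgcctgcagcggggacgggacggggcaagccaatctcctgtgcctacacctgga
Stc2 promoter: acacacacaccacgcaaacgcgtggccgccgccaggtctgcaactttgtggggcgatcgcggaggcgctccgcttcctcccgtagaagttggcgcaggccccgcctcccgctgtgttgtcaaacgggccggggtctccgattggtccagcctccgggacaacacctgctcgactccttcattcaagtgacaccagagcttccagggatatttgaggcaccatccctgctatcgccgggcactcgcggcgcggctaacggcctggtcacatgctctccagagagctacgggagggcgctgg
Igfbp4 promoter: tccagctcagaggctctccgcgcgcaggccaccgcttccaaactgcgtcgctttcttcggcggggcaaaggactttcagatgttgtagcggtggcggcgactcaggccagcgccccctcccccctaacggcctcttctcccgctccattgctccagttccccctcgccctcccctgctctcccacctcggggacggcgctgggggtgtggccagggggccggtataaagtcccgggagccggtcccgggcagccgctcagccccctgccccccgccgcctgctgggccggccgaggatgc

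The full oestrogen response element, searched on both strands as GGTCA, any 3 bases and TGACC, was in 0 of the 10 RefSeq promoters of the 7 genes and in 0.07% of 32851 promoters of the same length. The single core motif, which can overlap the full element, was in 1 of the 10, the upstream of 2 Greb1 promoters, where it lay on the opposite strand and ended 83 bases before the start site. Over all promoters 16.3% held it. These matches describe letters in a 300-base window only.

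Setting ALT beside telomerase tumours shows which transcripts differ between tumours kept on vehicle and tumours kept on 4-OHT, which the submitters describe as sharing parental lines. Among the 7 genes Greb1 and Stc2 rose and Igfbp4 fell in ALT tumours, Nrip1 did not pass the test, and Esr1, Esr2 and Pgr were too dim to be tested. The test was limma on log2 of the signal plus 16, adjusted over 12351 genes. At a threshold of 0.05 it called 17.5% of those genes, 7.47% as higher in ALT tumours and 10% as lower. Calls on both sides are therefore common, and the members' count is 3 of only 4 tested. In bulk tumour RNA, fewer cells of a type and less RNA per cell cannot be told apart.

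**Figure D1:**
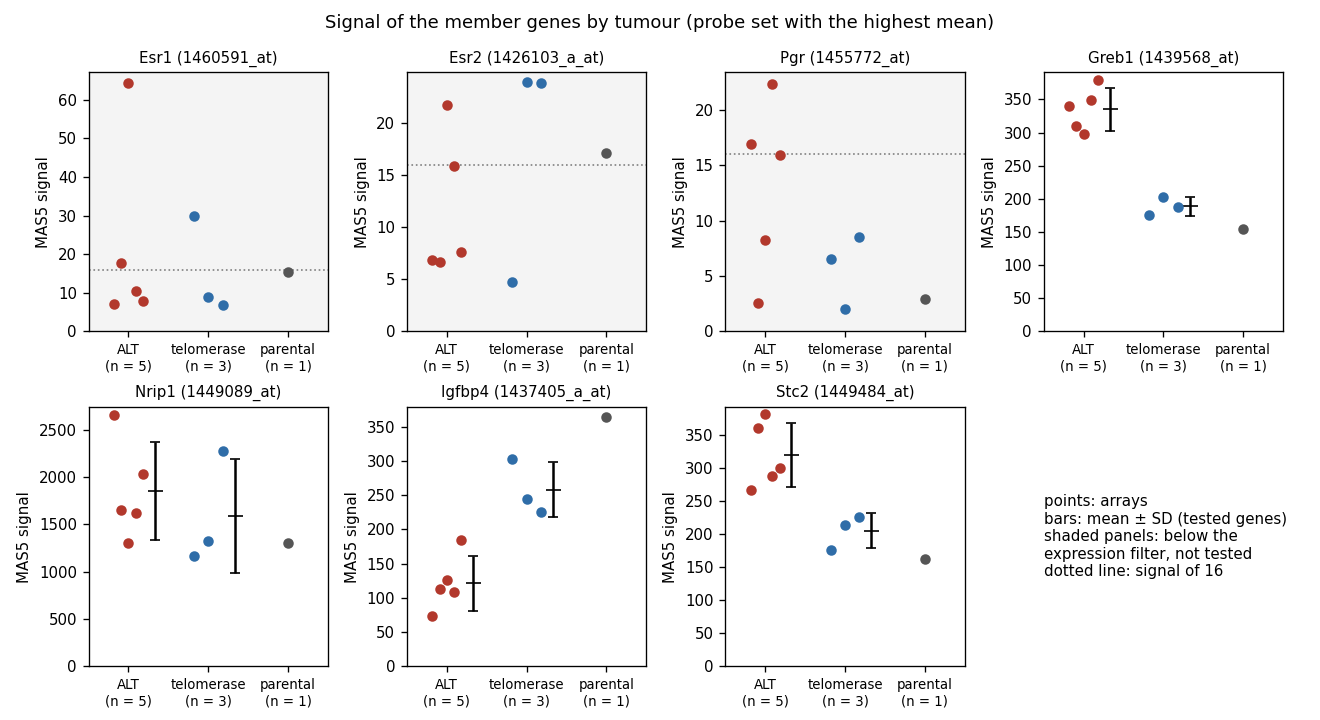
MAS5 signal (vertical axis, starting at 0) of each gene in ALT, telomerase and parental tumours, at its probe set with the highest mean. Points are arrays and bars are mean ± SD for tested genes. All ALT points lie above all telomerase points for Greb1 and Stc2 and below them for Igfbp4, and the Nrip1 groups overlap.

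The receptor genes gave little signal. Esr1, which encodes oestrogen receptor alpha, had 3 probe sets, and 21 of their 27 values were below 16. Probe set 1460591_at read 6.98, 17.8, 64.2, 10.4 and 7.87 in ALT 1 to 5, against 29.8, 8.92 and 6.76 in telomerase 1 to 3 and 15.5 in the parental tumour. The groups overlapped, and ALT 3 was the highest of the 9 arrays. Probe set 1435663_at, designed from the same transcript entry, was also highest in ALT 3, at 47.0, with 7.25 to 23.4 in the other ALT tumours, 12.7 to 17.0 in telomerase tumours and 12.3 in the parental tumour. Probe set 1421244_at, from the RefSeq transcript, read 1.05 in ALT 3 and stayed below 16 on every array. The higher reading of ALT 3 was thus not shared by all Esr1 probe sets. The sources used here do not state whether any of them reads the receptor part of TERT-ER.

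Esr2, which encodes oestrogen receptor beta, had 1 probe set. It read 6.89, 6.66, 21.7, 15.8 and 7.65 in ALT tumours, 4.74, 23.9 and 23.9 in telomerase tumours and 17.1 in the parental tumour. The groups overlapped within a range that lies below the filter, which corresponds to a signal of 24.2. Esr1 and Esr2 are therefore described without a test; fitted with no expression filter, their log2 changes were 0.16 and -0.24 (limma adjusted p = 0.867 and 0.650).

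Pgr, the progesterone receptor gene and the textbook readout of oestrogen receptor activity in breast and uterus, had low signals throughout. Of 27 values over 3 probe sets 24 were below 16. Probe set 1455772_at read 16.9, 2.57, 8.22, 22.4 and 15.9 in ALT tumours, against 6.55, 2.03 and 8.54 in telomerase tumours and 2.91 in the parental tumour. Of the ALT tumours 3 lay above every telomerase tumour and the others within their range; with no expression filter the log2 change was 0.39 (adjusted p = 0.356). The table holds no detection calls, so whether such signals exceed background is unknown.

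Greb1 encodes a cofactor of the oestrogen receptor and is among the most strongly oestrogen-induced genes in breast cancer cells. Its brightest probe set, 1439568_at, read 340.4, 310.0, 298, 349 and 379 in ALT 1 to 5, against 176, 203 and 187 in telomerase 1 to 3 and 155 in the parental tumour. All ALT tumours lay above all telomerase tumours, and the parental tumour was the lowest array. The means were 335 ± 32.3 in the 5 ALT and 189 ± 13.9 in the 3 telomerase tumours (SD, n = 5 and 3), a ratio of 1.78 (log2 change 0.78, SE 0.106, limma adjusted p = 0.00108).

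A second Greb1 probe set, 1419593_at, read 223, 221, 264, 317 and 337 in ALT tumours, against 131, 173 and 169 in telomerase tumours and 137 in the parental tumour. It also separated the groups (log2 change 0.72). Adjusted over 27000 probe sets, of which 18.8% were called and 7.07% called higher in ALT tumours, its p was 0.0118. The remaining pair of Greb1 probe sets were dimmer, at 23.9 to 53.6 on all arrays, overlapped between the groups and did not pass (log2 changes 0.20 and 0.17, adjusted p = 0.510 and 0.413). Greb1 thus rose at 2 of its 4 probe sets. The change at the brightest probe set was 0.72 in arrays without acinar transcripts (2 ALT, 2 telomerase; adjusted p = 0.0483) and 0.82 in arrays with them (3 ALT, 1 telomerase; adjusted p = 0.0921).

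Stc2 encodes stanniocalcin 2, a secreted glycoprotein that inhibits the protease pappalysin and thereby limits release of IGF from its binding proteins; it is induced by oestrogen in breast cancer cells and by endoplasmic reticulum stress. Probe set 1449484_at read 267, 361, 381, 288 and 300.5 in ALT tumours, against 176, 214 and 226 in telomerase tumours and 162 in the parental tumour. The groups did not overlap, and the parental tumour was again lowest. The means were 319.8 ± 49.0 in the 5 ALT and 205 ± 26.2 in the 3 telomerase tumours (SD, n = 5 and 3), a ratio of 1.56 (log2 change 0.60, SE 0.139, limma adjusted p = 0.0161).

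Probe set 1419503_at of Stc2 was designed from the same transcript entry as 1449484_at. It read 305, 339, 301, 269.7 and 347 in ALT tumours, against 106, 177 and 162 in telomerase tumours and 106 in the parental tumour. Here the ALT mean was 2.11 times the telomerase mean (log2 change 1.02, SE 0.156, adjusted p = 0.00151 over all probe sets). The third Stc2 probe set, 1445186_at, gave 185 to 248 in ALT tumours and 144 to 185 in telomerase tumours, separated by a narrow margin, and did not pass (log2 change 0.31, adjusted p = 0.117). The call at 1449484_at was lost without telomerase 1, which carried muscle transcripts (log2 change 0.50, adjusted p = 0.0831), and with the muscle marker level as a covariate (0.47, 0.144). It was also lost within the arrays without acinar transcripts (0.73, 0.0726) and within those with them (0.42, 0.405), each with fewer samples.

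Igfbp4 encodes an IGF-binding protein that holds IGF away from its receptor and is cleaved by pappalysin. It is oestrogen-induced in breast cancer cells, and it moved in the direction opposite to Greb1 and Stc2 here. Probe set 1437405_a_at read 73.9, 113, 126, 109 and 185 in ALT tumours, against 303, 245 and 226 in telomerase tumours and 364 in the parental tumour. Every ALT tumour lay below every telomerase tumour, and the parental tumour was the highest array. The means were 121 ± 40.3 in the 5 ALT and 258 ± 40.2 in the 3 telomerase tumours (SD, n = 5 and 3), a ratio of 0.471 (log2 change -1.03, SE 0.223, limma adjusted p = 0.0115).

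Over the 17 tested probe sets of the 4 genes, 4 were called higher and 4 lower, and for 9 the groups did not overlap, as for 25.4% of all probe sets. Of the 5 tested Igfbp4 probe sets 4 were called lower in ALT tumours and none higher, where 11.7% of all probe sets were called lower. At each of these 4 the groups did not overlap, and the ALT mean was 0.427 to 0.471 of the telomerase mean. Probe sets 1423756_s_at and 1423757_x_at were designed from the same transcript entry, and 1437405_a_at and 1437406_x_at from another. The 4 calls are therefore not independent readings. Probe set 1421992_a_at, the dimmest of the 5, read 31.8 to 48.8 in ALT tumours and 48.5 to 73.2 in telomerase tumours and missed the threshold (log2 change -0.51, adjusted p = 0.0570). The sixth, 1421991_a_at, was below 16 on every array. Probe sets ending in _s_at or _x_at can bind transcripts of other genes. The tested Igfbp4 probe sets of neither kind were 1437405_a_at, which was called lower, and 1421992_a_at, which missed the threshold. Binding to other transcripts was not tested.

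Igfbp4 signal was highest in the parental tumour and telomerase 1, the arrays with skeletal muscle transcripts. The same arrays were the lowest for Greb1 (155 and 176 at 1439568_at) and for Stc2 (162 and 176 at 1449484_at). Without telomerase 1 the log2 change of Igfbp4 was -0.92 (adjusted p = 0.0617), and with the muscle marker level as a covariate it was -0.87 (adjusted p = 0.106). Within the arrays with acinar transcripts, where telomerase 3 stood alone against 3 ALT tumours, it was -0.86 (adjusted p = 0.339). Telomerase 2 and 3, with summed muscle signals of 696 and 294 against 275 to 366 in ALT tumours, read 245 and 226. With the level of 12 stromal markers as a covariate the change was -1.01 (adjusted p = 0.00285). The summed stromal signal itself overlapped, at 5580 to 10320 in ALT tumours and 6393 to 9096 in telomerase tumours.

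**Figure D2:**
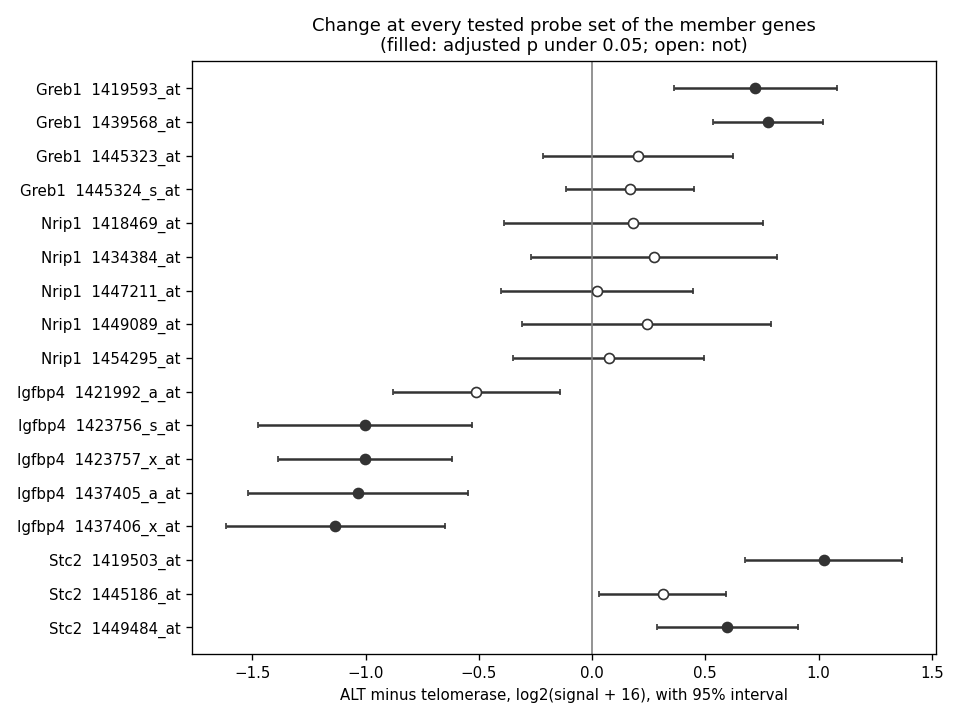
Difference of ALT minus telomerase tumours in log2(signal + 16) (horizontal axis) at each of the 17 tested probe sets, with its 95% interval from limma. Filled points passed an adjusted p of 0.05 over all probe sets: 2 of Greb1, 2 of Stc2 and 4 of Igfbp4.

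Nrip1 encodes RIP140, a ligand-dependent corepressor of nuclear receptors that oestrogen itself induces in breast cancer cells. Probe set 1449089_at read 2657, 1652, 1299, 1619 and 2037 in ALT tumours, against 1166, 1321 and 2277 in telomerase tumours and 1306 in the parental tumour. The groups overlapped, and telomerase 3 exceeded all ALT tumours but 1. The means were 1853 ± 520.1 in the 5 ALT and 1588 ± 602 in the 3 telomerase tumours (SD, n = 5 and 3), and the log2 change of 0.24 had a 95% interval of -0.32 to 0.81 (adjusted p = 0.561). None of the 5 tested Nrip1 probe sets passed (log2 changes 0.02 to 0.27; highest adjusted p 0.956 by limma), and none had an unadjusted p under 0.05.

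At 3 of the 5 tested Nrip1 probe sets the values split with the acinar transcripts. The share of all probe sets that split in this way was not counted, so whether Nrip1 is unusual in this is unknown. The 4 arrays with acinar transcripts read 1652 to 2657 and the 5 without them 1166 to 1619, with no overlap at 1449089_at, at 1434384_at (1584 to 2505 against 1124 to 1551) or at 1418469_at (680 to 1037 against 466 to 601). With the acinar marker level as a covariate the log2 change between ALT and telomerase tumours was 0.04 (adjusted p = 0.910). The groups of arrays overlapped at the other 2 tested probe sets, at 139.9 to 207 against 101 to 156 for 1454295_at and 31.5 to 39.8 against 19.9 to 36.5 for 1447211_at. Whether this signal comes from pancreatic cells in the specimen was not tested.

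**Figure D3:**
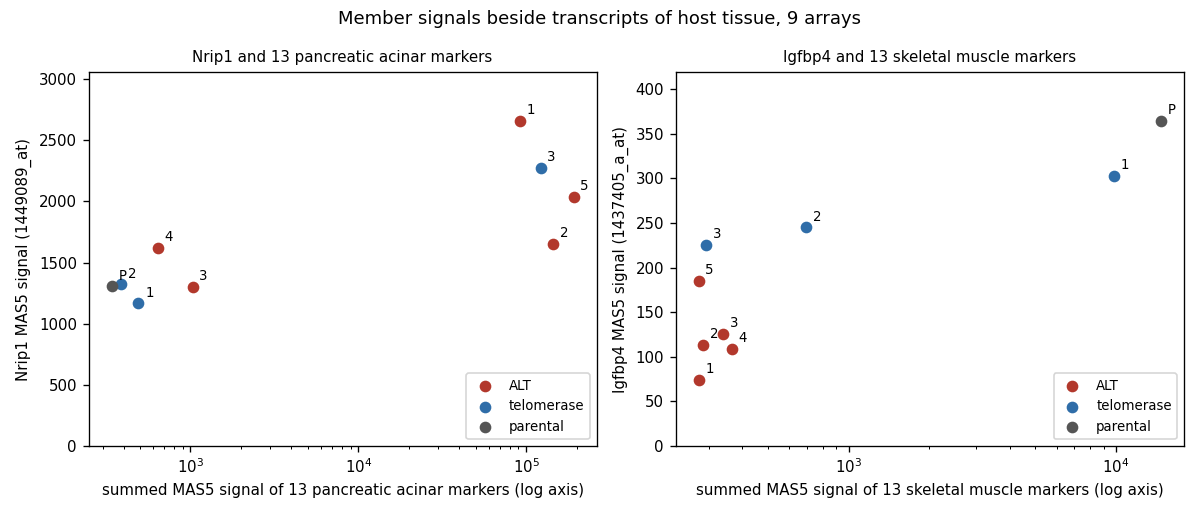
Left, Nrip1 signal against the summed signal of 13 pancreatic acinar markers. Right, Igfbp4 signal against that of 13 skeletal muscle markers. Horizontal axes are logarithmic, points are the 9 arrays with their replicate number (P, parental), and colours are groups. Nrip1 is 1652 or above in the 4 arrays at the right and 1619 or below in the others, and Igfbp4 is highest, at 364 and 303, in the 2 arrays with muscle transcripts.

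In the parental tumour, Greb1 and Stc2 were lower and Igfbp4 higher than in all 3 passaged telomerase tumours at the brightest probe sets, so for these genes it lay on the far side of the telomerase group from the ALT group. It is a single array, and that order has no test. The parental tumour also had the highest summed skeletal muscle signal, at 14710, followed by telomerase 1 at 9871, against 275 to 366 in ALT tumours. Whether the order follows muscle content was not tested. At those probe sets the order of group levels was ALT, telomerase, parental for Greb1 and Stc2 and the reverse for Igfbp4. The same order did not hold at Stc2 1445186_at, where the parental tumour (173) lay above the telomerase mean (163). Nor did it hold at Greb1 1445323_at (35.6 against 31.5). For Nrip1 the groups did not differ beyond their spread.

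The profiles most like each gene over the 9 arrays were ranked by Pearson correlation among the 12351 genes, as a description in which the difference between groups takes part. For Greb1 they were Rpn2 (r = 0.993), Cnnm2 (0.991) and Ptger4 (0.985). For Stc2 they were Tnfsf9 (0.978), Eif5b (0.967) and Creld2 (0.965). For Igfbp4 they were Fcgr2b (0.972), Nmnat1 (0.970) and Gen1 (0.969), and for Nrip1 Zfp644 (0.945), Cers4 (0.938) and Dpf2 (0.934).

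Other genes known to respond to oestrogen moved in both directions. Of 40 listed, 38 had a probe set of their own and 24 were tested: 2 rose and 7 fell in ALT tumours, where 7.47% of all genes were called higher and 10% lower. The median log2 change of the 24 was -0.02, against -0.01 over all genes tested. Rab31, a small GTPase of vesicle transport, read 209, 262, 216, 219 and 181 in ALT tumours, against 140, 101 and 85.1 in telomerase tumours (log2 change 0.92, SE 0.159, adjusted p = 0.00391). Ccnd1, cyclin D1, averaged 1894 ± 207 in the 5 ALT and 893 ± 428 in the 3 telomerase tumours (SD, n = 5 and 3), and rose, with a log2 change of 1.16 (adjusted p = 0.00731). The Ccnd1 call was lost with the muscle covariate (1.02, adjusted p = 0.0708) and in arrays without acinar transcripts (0.96, adjusted p = 0.117).

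Of the genes that fell, Igf1r and Irs1 encode the IGF-1 receptor and the adaptor that carries its signal. Igf1r read 551, 482, 991, 801 and 334 in ALT tumours, against 1595, 1239 and 1548 in telomerase tumours and 1482 in the parental tumour (log2 change -1.28, adjusted p = 0.0155). The ALT tumours with acinar transcripts gave the lowest 3 of these values, and within the arrays without such transcripts the change was -0.65 (adjusted p = 0.0751). The Igf1r call was also lost without telomerase 1 or 3 (adjusted p = 0.0693 and 0.0522) and with the muscle covariate (-1.20, 0.107). It held in 21 of 25 other settings. Irs1 read 19.3, 40.3, 23.1, 15.7 and 67.7 in ALT tumours, against 107, 68.4 and 71.7 in telomerase tumours (log2 change -1.07, adjusted p = 0.0389). The Irs1 call held in 14 of 24 other settings. With a single array left out it held only without ALT 5 (adjusted p = 0.00561), and it was weakest without telomerase 1 (0.158). It was also lost with the muscle covariate (-0.86, adjusted p = 0.236). The groups did not overlap for either gene.

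The other 5 genes that fell passed by a small margin, as Irs1 did. They were Kdm4b, a histone demethylase and receptor coactivator (log2 change -0.53, adjusted p = 0.0365), the ubiquitin ligase gene Siah2 (-0.63, 0.0404), Abat, which degrades GABA (-0.95, 0.0427), the chemokine gene Cxcl12 (-0.60, 0.0446) and the transcription factor gene Myb (-0.50, 0.0456). The Kdm4b call held in 13 of 25 other settings and the Siah2 call in 9 of 25. With the mean of probe sets the Siah2 change was -0.16 (limma adjusted p = 0.478). Abat, Cxcl12 and Myb stand outside the 6 genes of smallest p by which genes of this list were to be named. Without telomerase 1, 2 genes of the list rose and 0 fell by limma, with 7 lower at an unadjusted p of 0.05. Leaving out any other single array left 1 to 5 that fell. With quantile normalisation 2 fell, and with no expression filter 2 fell. With the muscle covariate 1 rose and 0 fell by limma, with 3 higher and 4 lower at an unadjusted p of 0.05.

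Of 19 tested coregulators of the receptors, 1 rose and 2 fell, which is 15.8% against 17.5% of all genes, with a median log2 change of 0.07. Tle1, a corepressor of the Groucho family that works with the receptor in breast cancer cells, read 239, 214, 309, 237 and 329 in ALT tumours, against 156, 163 and 136 in telomerase tumours, and rose by 0.74 (adjusted p = 0.00857). Ddx17, an RNA helicase and coactivator, fell by 0.37 (adjusted p = 0.00452), and Gata3, a transcription factor of T cells as well as of breast epithelium, fell by 0.41 (adjusted p = 0.0123). The p160 coactivator genes Ncoa1, Ncoa2 and Ncoa3 had log2 changes of 0.18, 0.31 and -0.16 (adjusted p = 0.287, 0.0772 and 0.544). For Ncoa3 the mean of all its probe sets gave 0.49 (adjusted p = 0.0135), so its direction rests on the probe set. The mean of probe sets gave 0.03 for Ncoa1 and -0.01 for Ncoa2 (adjusted p = 0.901 and 0.969). With it the Ddx17 call was lost (-0.28, adjusted p = 0.0790), while the calls of Tle1 and Gata3 held (0.82 and -0.41, adjusted p = 0.00320 and 0.0124).

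Of 11 tested chaperones and cochaperones that fold steroid receptors, 1 rose and 0 fell, which is 9.09% against 17.5% of all genes, with a median log2 change of -0.04. It was Ppp5c, a phosphatase of the HSP90 complex, with a log2 change of 0.36 (adjusted p = 0.0420); the call was lost without telomerase 1, 2 or 3 and without ALT 2, 3 or 5 (adjusted p from 0.0578 to 0.163). Averaging the probe sets of each gene gave 0 that rose and 2 that fell, namely Hspa4 and Dnaja1, a pair of HSP70-system chaperone genes (log2 changes -1.07 and -0.47, limma adjusted p = 8.65e-05 and 0.00436). Hsp90aa1, the inducible HSP90, read 8660 to 10902 in ALT tumours and 10490 to 12108 in telomerase tumours (log2 change -0.19, adjusted p = 0.140). Fkbp5, a cochaperone gene induced by glucocorticoids and progestins, had a log2 change of 0.09 (adjusted p = 0.817).

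Of 4 tested related receptors 0 passed by limma, and 2 had an unadjusted p under 0.05; the median log2 change was 0.19. Gper1, a membrane receptor for oestrogen at which 4-OHT acts as an agonist, read 34.5 to 50.8 in ALT tumours and 23.2 to 32.0 in telomerase tumours (log2 change 0.42, adjusted p = 0.0960). The orphan receptor gene Esrrb read 110 to 162 in ALT tumours and 90.5 to 106 in telomerase tumours (log2 change 0.36, adjusted p = 0.107). Neither pair of groups overlapped, as in 24.7% of all genes. With the mean of probe sets the log2 changes were 0.19 for Gper1 and 0.04 for Esrrb (limma adjusted p = 0.279 and 0.817). Esrra had a log2 change of -0.00 and the glucocorticoid receptor gene Nr3c1 one of 0.02 (adjusted p = 0.999 and 0.948). Esrrg, whose product binds 4-OHT, and the mineralocorticoid receptor gene Nr3c2 were below the filter.

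Of 8 tested genes that bind, export or metabolise tamoxifen 2 rose and 0 fell, where 7.47% of all genes were called higher, and the median log2 change was 0.18. The count was 1 without telomerase 2, without telomerase 3 and with the muscle covariate. Abcb1b, a P-glycoprotein gene for export of many drugs, read 231, 192, 276, 219 and 329 in ALT tumours, against 136, 136 and 59.2 in telomerase tumours and 190 in the parental tumour (log2 change 1.12, SE 0.249, adjusted p = 0.0132). Its neighbour in the family, Abcb1a, had a log2 change of 0.44 (adjusted p = 0.102); the 2 genes are close in sequence, and shared binding was not analysed here. Dhcr7, a sterol reductase that forms part of the antioestrogen binding site, averaged 861 ± 75.6 in the 5 ALT and 643 ± 45.1 in the 3 telomerase tumours (SD, n = 5 and 3; log2 change 0.41, adjusted p = 0.0168). The Dhcr7 call was lost without telomerase 2 or 3 (adjusted p = 0.0629 and 0.0627), with the muscle covariate (0.0504) and with the parental array counted as a telomerase tumour (0.0764). The parental tumour, at 873, lay among the ALT values. Ebp, the other subunit of that site, had a log2 change of 0.23 (adjusted p = 0.138).

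Of the IGF ligands, other receptors, binding proteins and processing genes, listed apart from Igf1r and Irs1, which were called lower above, 0 of 10 tested passed by limma, and 1 had an unadjusted p under 0.05; the median log2 change was -0.09. Igf1 read 127, 120, 177, 105 and 172 in ALT tumours and 88.7, 80.9 and 117 in telomerase tumours (log2 change 0.48, adjusted p = 0.107). Stc1, the paralogue of Stc2, had a log2 change of -0.50 (adjusted p = 0.307), with ALT 5 at 174 and the other ALT tumours at 48.5 to 71.0, below the telomerase tumours at 100.3 to 127. Without ALT 5 the Stc1 change was -0.77 (adjusted p = 0.00788). Pappa and Pappa2, which encode the proteases that stanniocalcins inhibit, were below the filter, at 4.96 to 36.2 in ALT tumours and 2.54 to 29.3 in telomerase tumours over both genes.

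**Figure D4:**
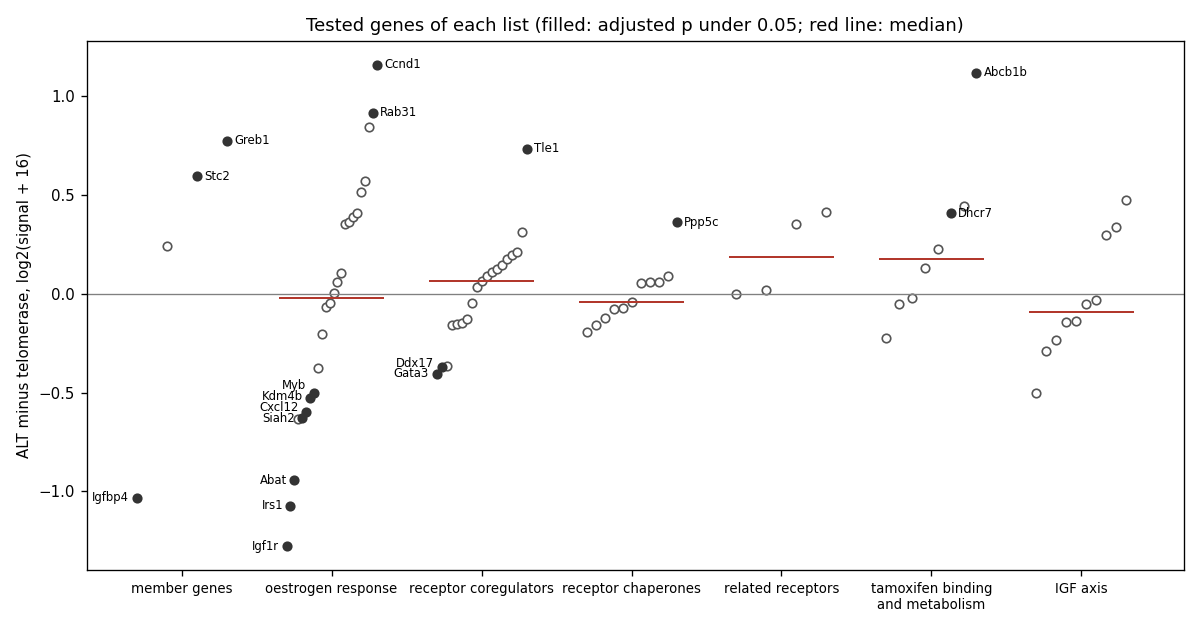
Difference of ALT minus telomerase tumours in log2(signal + 16) (vertical axis) for the tested genes of each list. Filled points, with names, passed an adjusted p of 0.05 over all genes, and red lines are medians, drawn for the lists other than the members. Calls lie on both sides among oestrogen response genes and coregulators, and none is among the related receptors or the IGF axis list, which does not hold Igf1r and Irs1.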

How the data were processed

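Total RNA of 9 tumours was biotin-labelled and hybridised to Affymetrix arrays. The deposited table holds 1 MAS5 intensity per probe set and array on a linear scale, as the authors made it with MAS5 per the submitters' processing notes. The sources used here do not state its version, settings or scaling target. Precision is limited by how few arrays there are, and the table has no detection calls. Probe sets with a single gene in the platform annotation (34945) were used, and for each gene the one with the highest mean over the 9 arrays. The lowest 40% of probe sets by mean were left out, which left 12351 genes and, in a second fit, 27000 probe sets. Values were log2(signal + 16). The 5 ALT and 3 telomerase arrays were compared with limma 3.58.1 in R 4.3.3 (eBayes with trend, two-sided, Benjamini-Hochberg over all features, threshold 0.05), checked on simulated data. The parental array stayed out of the fit. Arrays were split by acinar transcripts at the widest gap of the marker level.

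The alternatives were normalisation, pseudocount, filter, probe set summary, parental tumour, replicate block, variance model, threshold, each array left out, and host tissue. Same-numbered ALT and telomerase arrays deviated in opposite directions (r from -0.57 to -0.30), as did some with different numbers (-0.48 for ALT 4 with telomerase 3). The r was positive where both arrays carried acinar transcripts or both lacked them, and negative otherwise. It therefore cannot show whether same-numbered arrays are pairs, and numbers were not used as pairs. The genes named are all members, up to 6 called genes of each list by p, fixed coregulators and receptors, and the 3 genes most correlated with each tested member; other list genes named were chosen after their values were seen. Members and lists were chosen with earlier results of these data known. Of 40 oestrogen response genes and 22 coregulators, 38 and 20 had a probe set of their own, and the rest were not analysed here. Promoters are from RefSeq. Plots used Python 3.11.15 and matplotlib 3.10.9.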

Additional observations from a re-analysis of the deposited data

How the results depend on the processing

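Of the genes tested 2160 passed, and 3 of the 4 tested members. Other settings gave 982 genes with a replicate block, 449 with a log2 change of at least 1, 880 with the muscle covariate, 836 in arrays without acinar transcripts, 334 in arrays with them, and 1152 to 2079 with 1 array left out, lowest without telomerase 1. For probe sets, where 5067 passed, these numbers were 2709, 1071, 2142, 2414, 865 and 2845 to 4835. The members called were 1 with a log2 change of at least 1 (Igfbp4), 1 with the muscle covariate (Greb1), 0 in arrays with acinar transcripts (1 at an unadjusted p of 0.05) and 1 to 3 with 1 array left out, 1 being Greb1 without telomerase 1; the cause was not tested. Replicate block changed no call of a member gene (Greb1 0.70, Stc2 0.66, Igfbp4 -1.20), but Greb1 at 1419593_at missed (adjusted p = 0.0667). With it 1 oestrogen response gene rose and 3 fell, and 0 of the tamoxifen genes passed by limma (2 at an unadjusted p of 0.05). Greb1, Stc2 and Igfbp4 kept their direction in all 25 alternatives each, with log2 changes of 0.47 to 0.84, 0.42 to 0.73 and -1.20 to -0.81. Nrip1 did not pass in any of 25 (-0.13 to 0.53). Ncoa3 turned to 0.49 with the mean of probe sets. Signals near 16 limit what can be said of Esr1, Esr2 and Pgr. The fit on arrays with acinar transcripts takes the spread of its lone telomerase tumour from the ALT tumours.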

Other observations

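The chromosomal neighbours of the members were read as the 3 nearest tested genes on each side in the GRCm38.p6 gene order, a choice made after the data had been seen. Of the 42 neighbours 2 were called higher and 6 lower in ALT tumours, which is 19% against 17.5% of all genes. Next to Greb1 on chromosome 12, Trib2 and E2f6 rose in ALT tumours, with log2 changes of 1.28 and 0.49 (limma adjusted p = 0.000785 and 0.00562), and the other 4 neighbours did not pass (log2 changes from -0.16 to 0.15). Next to Igfbp4 on chromosome 11, the chemokine receptor gene Ccr7 fell by 1.41 (adjusted p = 0.00421), and the other 5, among them the retinoic acid receptor gene Rara, had log2 changes from -0.05 to 0.29 and did not pass. Next to Stc2, also on chromosome 11, 0 of 6 rose and Bod1 fell by 0.33 (adjusted p = 0.0415). Next to Nrip1 on chromosome 16, Cxadr and Mir99ahg fell by 1.35 and 0.80 (adjusted p = 0.00207 and 0.0422), and 0 of 6 rose. Among the neighbours of the receptor genes, Armt1 next to Esr1 and Wdr89 next to Esr2 fell by 0.39 and 0.70 (adjusted p = 0.0465 and 0.0232), and 0 of the 6 next to Pgr passed, with log2 changes from 0.02 to 0.46.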
